A study of Mus musculus with 14 samples.

Results

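The Twist, Snail, Zeb and Prrx families are transcription factors of the epithelial-mesenchymal transition, and 8 of their genes were listed among the 15894 genes measured in the epicardial and subepicardial layer of the mouse heart: Twist1, Twist2, Snai1, Snai2, Zeb1, Zeb2, Prrx1 and Prrx2. The members were taken by gene name, and the group was chosen by its known roles with the normalized CPM of these libraries and earlier results from them in view. Regional differences and differences between the sexes are therefore descriptions, and the calls given for members are no independent evidence of a direction. RNA came from E16.5 embryos of mixed genetic background that all carried Tbx18Cre, which drives Cre in the epicardium, and the study treats these hearts as wild type. Each library was made from 2 pooled hearts and sequenced as poly(A) RNA, and there were 3 female ventral libraries (numbers 1 to 3), 3 female dorsal (1 to 3), 4 male ventral (4 to 7) and 3 male dorsal libraries (4 to 6). A further male library, number 7, is called dorsal in some labels and ventral in another, so it entered no main comparison. Female and male libraries carry different numbers throughout, so sex and whatever the numbers mark cannot be told apart.

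During heart development the epicardium is a mesothelial sheet from which cells detach, lose epithelial junctions and enter the subepicardium, where they form fibroblasts and mural cells. Twist proteins are basic helix-loop-helix (bHLH) factors that pair with E proteins, Snail and Zeb proteins are zinc finger factors that bind E-box sequences and repress epithelial genes such as Cdh1, and Prrx proteins are paired-related homeodomain factors of embryonic mesenchyme. Snai2 is also known as Slug.

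Values are normalized CPM as deposited, and 13.9 to 25.2 M reads per library fell on listed genes (median 20.4 M). A count of 3 reads, taken as the floor of detection, was worth 0.116 to 0.217 normalized CPM. The labelled tissue held all 10 epicardial genes of a marker list, among them Wt1, Tbx18 and Upk3b. It also held muscle: 10 ventricular cardiomyocyte genes summed to between 17790 and 46790 normalized CPM. Atrial cardiomyocyte genes, 6 in number, summed to 12810 in female dorsal library 1 and to 542.2 to 2032 in the other 13 libraries, so values with and without that library are given where it carries a result.

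Divided by exonic length, Snai2 had the highest level, with a median over the 14 libraries of 14.6 normalized CPM per kb. Zeb1 followed at 8.56 per kb and Snai1 at 5.84 per kb. The remaining medians per kb were 1.94 for Zeb2, 1.81 for Prrx1, 1.34 for Twist1, 0.839 for Twist2 and 0.277 for Prrx2. Snai2 lay above Zeb1 in 13 of 14 libraries and Snai1 above Zeb2 in all 14, but Zeb1 exceeded Snai1 in only 9 and Zeb2 exceeded Prrx1 in only 7. Neighbours lower in the order also changed places: Prrx1 exceeded Twist1 in 9 of 14 libraries, and Twist1 exceeded Twist2 in 9. Per kb of the longest transcript Zeb1 came first instead, at a median of 15.1 per kb. The place of Twist1 moved most with region. In female ventral libraries its median of 9.08 per kb was the third highest of the 8 genes, and in female dorsal libraries its 0.284 per kb was the lowest.

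The genes stand apart in the genome. In GRCm38, Twist1 lies at chr12:33957671-33959829, Twist2 at chr1:91801461-91848028, Snai1 at chr2:167538195-167542814, Snai2 at chr16:14705852-14709385 and Prrx2 at chr2:30834972-30881251, all on the plus strand. Zeb2 at chr2:44983632-45117395 and Prrx1 at chr1:163245119-163313710 lie on the minus strand. All 8 are protein coding. Exons of Zeb2 share 653 bases (3.27% of its exonic sequence) with Zeb2os on the opposite strand, and exons of Zeb1 share 198 bases (1.93%) with Gm10125, and since no strand setting is stated the reads of these stretches cannot be assigned. Zeb2os was listed at 0.809 to 3.99 and Gm10125 at 0.677 to 2.79 normalized CPM, far under the levels of their neighbours.

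In female hearts Twist1 was the member that differed most between the regions. In female ventral libraries 1 to 3 it stood at 7.90, 14.8 and 19.7 normalized CPM (151, 204 and 335 reads), and in female dorsal libraries at 1.87, 0.463 and 0.274 (40, 8 and 5 reads). The lowest ventral value was thus far above the highest dorsal value, and the means of 14.1 ± 5.92 and 0.869 ± 0.872 (SD, n = 3 each) stood in a ratio of 16.3. Without female dorsal library 1, in which the atrial genes were high, the dorsal mean was 0.369 and the ratio 38.3. In male ventral libraries 4 to 7 Twist1 read 2.22, 3.95, 3.21 and 4.40, and in male dorsal libraries 4 to 6 it read 0.233, 2.15 and 1.83. The male groups did not overlap either, although ventral library 4 was close to dorsal library 5, and the ratio of the male means was 2.46. Male dorsal library 4 held 3 reads of Twist1, which is the floor.

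Twist2, a paralog with a nearly identical bHLH domain, gave another picture. Female ventral libraries read 1.75, 6.04 and 3.37 normalized CPM and female dorsal libraries 3.99, 1.17 and 2.47, so these groups overlapped, with means of 3.72 ± 2.17 and 2.55 ± 1.41 (SD, n = 3 each). In males the ventral libraries read 5.14, 2.06, 2.85 and 3.34, and the dorsal libraries 1.50, 0.554 and 0.640. Every male ventral value was above every male dorsal value, with a ratio of the means of 3.73 (5.61 without male dorsal library 4).

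Prrx1 was also higher on the ventral side. It stood at 43.3, 34.7 and 29.8 normalized CPM in female ventral libraries and at 15.7, 14 and 13 in female dorsal libraries, with means of 35.9 ± 6.84 and 14.2 ± 1.38 (SD, n = 3 each) and a ratio of 2.52. Male ventral libraries read 22.5, 23.7, 23.3 and 20.7, and male dorsal libraries 15.3, 19.4 and 19.1, a ratio of 1.26. The regional groups did not overlap in either sex, and the male ventral values fell between the female ventral and the female dorsal ones.

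Prrx2 was opposite in female hearts and scarce in males. Female ventral libraries read 0.548, 1.19 and 1.1 normalized CPM (10, 16 and 18 reads) and female dorsal libraries 5.52, 3.24 and 2.82 (119, 59 and 56 reads), so that the dorsal mean of 3.86 ± 1.45 was 4.10 times the ventral mean of 0.942 ± 0.346 (SD, n = 3 each). The highest value was that of dorsal library 1, in which the atrial genes were also high, and the other dorsal libraries still lay above every ventral one. In male hearts Prrx2 had 10, 7, 7 and 45 reads in ventral libraries 4 to 7, and 6, 0 and 0 reads in dorsal libraries 4 to 6. A count of 0 allows up to 0.123 normalized CPM in dorsal library 5 and 0.142 in dorsal library 6. Too few male libraries reached a value of 1 for Prrx2 to enter the male regional fit.

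**Figure D1:**
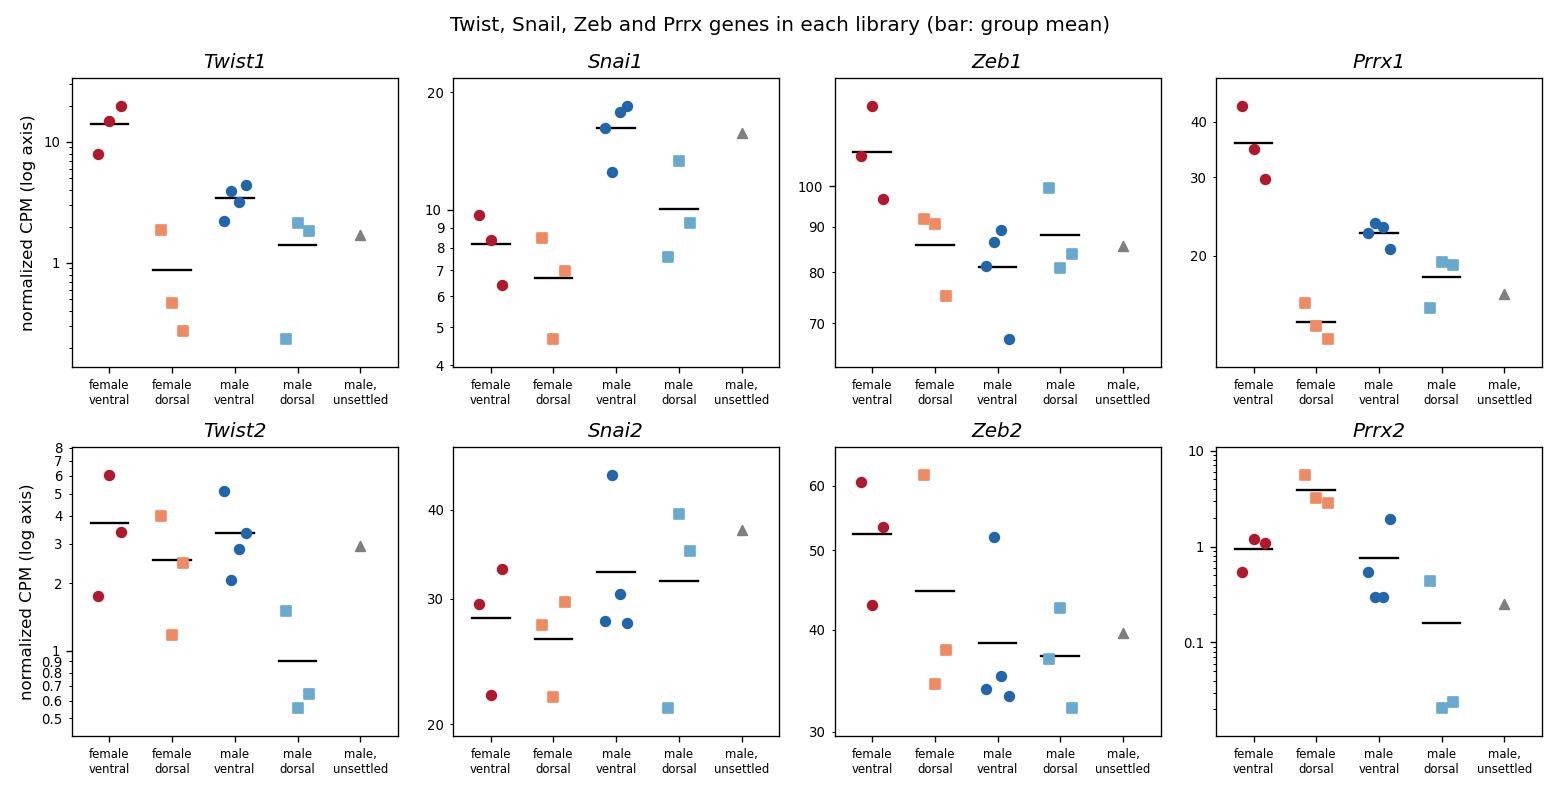
Normalized CPM of each factor (vertical log axis, its own range in each panel) in the 14 libraries, by sex and region; each point is a library of 2 pooled hearts, bars are group means, and the triangle is the male library of unsettled region. Twist1 and Prrx1 stand higher in the female ventral than in the female dorsal libraries and Prrx2 lower, while the Snai2 and Zeb2 groups overlap; the 2 lowest Prrx2 points are libraries with 0 reads.

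Snai1 overlapped between the regions in both sexes and reached its highest levels in male ventral libraries. In female hearts it read 9.68, 8.35 and 6.42 normalized CPM ventrally and 8.47, 4.66 and 6.96 dorsally. In male hearts it read 16.2, 12.5, 17.8 and 18.4 ventrally and 7.57, 13.3 and 9.27 dorsally. Every male ventral library was above every female library, whereas male dorsal libraries 4 and 6 lay within the female range.

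Snai2 stood at similar levels in all groups. It read 29.5, 21.9 and 33.1 normalized CPM in female ventral, 27.6, 21.8 and 29.7 in female dorsal, 28.0, 44.7, 30.5 and 27.7 in male ventral and 21.0, 39.4 and 35.0 in male dorsal libraries. The regional ratio of the means was 1.07 in females and 1.03 in males, and the highest and lowest of the 14 libraries differed 2.13-fold.

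By the fold between the highest and the lowest library, the Zeb genes varied least. Zeb1 read 108, 123 and 96.7 normalized CPM in female ventral libraries and 91.9, 90.7 and 75.1 in female dorsal libraries, which did not overlap but stood in a ratio of only 1.27. Male ventral libraries read 81.3, 86.4, 89.3 and 67.1 and male dorsal libraries 99.5, 80.9 and 83.8, which overlapped. Zeb2 read 60.6, 42.8 and 53.5 in female ventral, 61.8, 34.3 and 37.8 in female dorsal, 33.8, 52.0, 35.0 and 33.2 in male ventral and 36.8, 42.5 and 32.0 in male dorsal libraries, and the regions overlapped in both sexes. In females they overlapped only through dorsal library 1, in which the atrial genes were high. The other female dorsal libraries lay below every ventral one. The female ratio of the Zeb2 means was 1.17 with dorsal library 1 and 1.45 without it. Between the highest and the lowest library, Zeb1 differed 1.84-fold and Zeb2 1.93-fold, against 84.3-fold for Twist1.

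On the log2(value + 1) scale, where the added 1 compresses the change of scarce genes, the ventral minus dorsal difference in female hearts was 3.03 ± 0.43 (SE) for Twist1, 1.26 ± 0.20 for Prrx1 and -1.30 ± 0.34 for Prrx2. These were the 3 of 8 members called in the female fit, 2 in the ventral and 1 in the dorsal direction, where a gene was called when its limma p-value, adjusted over all genes tested, was under 0.05. Of all 14411 genes in that fit 27.8% were called, 14.5% ventrally and 13.3% dorsally, and as the members were picked with these values in view nothing is read from their share. The other differences were 0.39 ± 0.44 for Twist2, 0.27 ± 0.30 for Snai1, 0.08 ± 0.21 for Snai2, 0.34 ± 0.15 for Zeb1 and 0.26 ± 0.23 for Zeb2, and none of these was called. The Prrx2 difference was -1.07 without female dorsal library 1 (adjusted p = 0.0682), -1.14 without female ventral library 1 (adjusted p = 0.0553) and -1.38 without female dorsal library 2 (adjusted p = 0.0513), so it was no longer called without any of these. Groups that did not overlap were counted as well: 3 members were ventral (Twist1, Zeb1, Prrx1) and 1 dorsal (Prrx2), against 23.2% and 21.6% of all genes.

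In male hearts the differences were 0.97 ± 0.40 (SE) for Twist1, 1.18 ± 0.36 for Twist2, 0.66 ± 0.26 for Snai1, 0.06 ± 0.26 for Snai2, -0.12 ± 0.15 for Zeb1, 0.04 ± 0.20 for Zeb2 and 0.32 ± 0.19 for Prrx1. None of the 7 members tested was called by limma or by edgeR, and 3 (Twist1, Twist2, Snai1) had an unadjusted p under 0.05. The male fit called 0% of its 14917 genes, with 2083 at an unadjusted p under 0.05. Pairing ventral and dorsal libraries of one number (the replicate block), limma called 76 of them (0.509%), still without a member, and 12 genes were called without male dorsal library 6, 1 without male dorsal library 4 and 1 without the trend. Male groups did not overlap for Twist1, Twist2 and Prrx1, all ventral, against 6.18% of all genes ventrally and 7.82% dorsally.

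The size of the regional difference in male minus that in female hearts was -2.06 ± 0.61 (SE) for Twist1, -0.95 ± 0.26 for Prrx1 and 1.84 ± 0.50 for Prrx2. In the limma fit of all 13 settled libraries these had adjusted p-values of 0.0981, 0.0701 and 0.0695, so none of the 8 members was called, while 2.73% of all genes were. With unadjusted p-values 4 members (these 3 and Zeb1) were under 0.05, as were 2428 of 15772 genes, and edgeR called no member. This comparison is built from the same regional values that were in view when the genes were chosen.

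**Figure D2:**
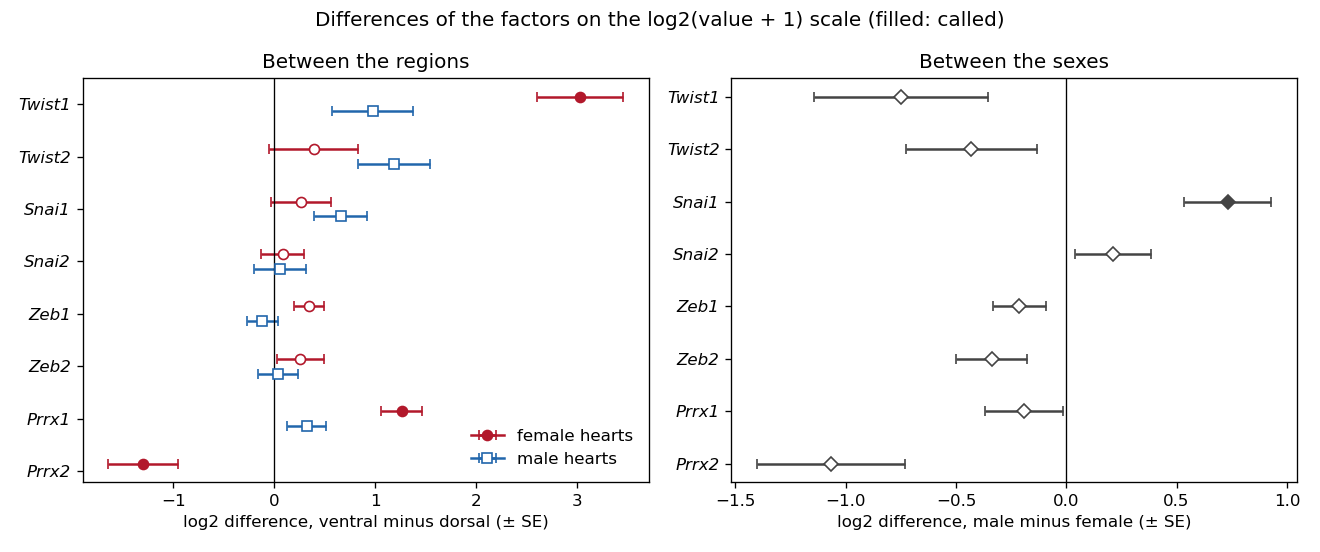
Left, the ventral minus dorsal difference of each factor on the log2(value + 1) scale in female (circles) and male hearts (squares); right, the male minus female difference with region as a covariate. Bars are standard errors and filled symbols were called: Twist1, Prrx1 and Prrx2 between the female regions and Snai1 between the sexes. Prrx2 has no male regional value.

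Ratios of 2 paralogs within a library do not depend on how libraries were scaled. Per kb of exonic length, Twist1 over Twist2 was 4.78 to 11.4 in female ventral libraries and 0.217 to 0.913 in female dorsal libraries, so the Twist gene with the higher level per kb was Twist1 ventrally and Twist2 dorsally in all 6. In male libraries this ratio was 0.844 to 3.73 ventrally and 5.56 and 7.58 in dorsal libraries 5 and 6. Male dorsal library 4 went the other way, with 0.143 normalized CPM per kb of Twist1, from 3 reads, against 0.473 per kb of Twist2. In normalized CPM, Prrx1 over Prrx2 was 27.4 to 79.0 in female ventral and 2.85 to 4.61 in female dorsal libraries. Exonic length is 11066 bases for Prrx1 and 1961 for Prrx2. Per kb the ratio was 4.86 to 14 in female ventral and 0.505 to 0.817 in female dorsal libraries. Prrx1 thus had the higher level per kb in all female ventral libraries and Prrx2 in all female dorsal ones. In male ventral libraries Prrx1 over Prrx2 was 10.7 to 78.9 in normalized CPM and 1.90 to 13.98 per kb. Male dorsal library 4, the only male dorsal one with more than 3 reads of Prrx2, gave 35.3 and 6.26. The ratios that follow are in normalized CPM. Snai1 over Snai2 was 0.194 to 0.381 and 0.214 to 0.307 in female ventral and dorsal libraries and 0.280 to 0.664 and 0.265 to 0.360 in the male ones. Zeb1 over Zeb2 lay between 1.49 and 2.88 in all 14 libraries. Snai1 over Twist1 was 0.326 to 1.22 in female ventral libraries and 4.53 to 25.4 in female dorsal ones.

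Between the sexes, with region as a covariate, Snai1 was the member called. It was 1.83-fold higher in males by the means of the 7 male and 6 female libraries (13.6 against 7.42 normalized CPM), a log2 difference of 0.73 ± 0.20 (SE, limma adjusted p = 0.0274). This is 1 of 8 members called against 10.9% of 15772 genes, and in the direction of males 1 against 4.4%, while no member was called higher in females, against 6.54% of genes. The call rests on individual libraries: the adjusted p was 0.0544 without female ventral library 2, 0.0695 without female ventral library 3, 0.059 without female dorsal library 2, 0.0587 without male ventral library 6, 0.0563 without male ventral library 7 and 0.0581 without male dorsal library 5, with the log2 difference between 0.64 and 0.82 whichever library was left out. Corrected for GC content and gene length it was 0.59 (adjusted p = 0.0748), and with libraries of one number averaged 0.69 (adjusted p = 0.0988). Neither setting called Snai1. The average counts each number once, whereas the main fit takes ventral and dorsal libraries of one number as independent. Over 24 alternatives the adjusted p ranged from 0.0129 to 0.0988.

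The other members were not called between the sexes. Prrx2 came closest, with a log2 difference of -1.07 ± 0.34 (SE, limma adjusted p = 0.0536), lower in males, and it was called in 6 of 23 alternatives. Twist1 was at -0.75 ± 0.39, Twist2 at -0.43 ± 0.30, Snai2 at 0.21 ± 0.17, Zeb1 at -0.21 ± 0.12, Zeb2 at -0.34 ± 0.16 and Prrx1 at -0.19 ± 0.18. For all 8 members the male and the female libraries overlapped, against 3.91% of genes that did not overlap. Epicardial genes also differed between the sexes: 4 of 10 were called higher in males (Upk3b, Msln, Krt19, Wt1) and none lower, as were 1 of 9 fibroblast genes (Tcf21) and 1 of 6 macrophage genes (Csf1r). The shares over all genes were 4.4% higher in males and 6.54% lower. The epicardial sum ranged from 275.5 to 2744 normalized CPM in female and from 1532 to 5882 in male libraries of settled region, and the part of these cells in the Snai1 difference was not tested.

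The RNA of cell type markers also differed between the regions. In female hearts 9 of 10 epicardial, 6 of 9 fibroblast, 5 of 6 macrophage and 3 of 6 lymphatic endothelial genes were called higher ventrally and none dorsally. Of all genes in that fit 14.5% were called ventrally and 13.3% dorsally. The 9 fibroblast genes summed to between 11910 and 22530 normalized CPM in female ventral libraries and to between 3017 and 4906 in female dorsal ones, and the 10 epicardial genes to between 1693 and 2744 and between 275.5 and 612.7. Smooth muscle and pericyte genes went the other way, with 3 of 6 called dorsally and sums of 745.7 to 1151 ventrally and 1287 to 1603 dorsally. The 10 ventricular cardiomyocyte genes summed to 22090 to 32400 ventrally and 31710 to 46130 dorsally, which overlapped. In male hearts the limma fit called no marker. Ventricular cardiomyocyte sums there were 17790 to 34210 ventrally and 36820 to 46790 dorsally. Male blood endothelial sums were 169.2 to 866 and 1006 to 1092, also without overlap. Male fibroblast sums (11240 to 25800 and 7501 to 12840) and epicardial sums (1938 to 5882 and 1532 to 4201) overlapped. In bulk tissue, fewer cells of a type and less RNA of a gene per cell cannot be told apart, and the part of the cell mixture in the regional values of the factors was not tested.

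The factors were also set against the fibroblast genes. In female libraries the collagens Col1a1, Col1a2 and Col3a1 made up 77.4% to 82.9% of this sum ventrally and 52.1% to 70.5% dorsally, so values relative to it are mainly relative to collagen, and 3 genes of the list were not called (Tcf21 at 0.58, Lum at 0.39 and Postn at -0.01). Twist1 amounted to 0.664 to 0.873 per 1000 units of the fibroblast sum in female ventral libraries and to 0.0584 to 0.381 in female dorsal libraries, so the groups did not overlap on this scale either. Prrx1 gave 1.32 to 3.63 per 1000 ventrally and 2.76 to 4.63 dorsally, which overlapped, with the higher median dorsally. Snai2 gave 1.07 to 2.47 ventrally and 5.63 to 7.23 dorsally, and Zeb1 4.29 to 9.10 ventrally and 16.0 to 30.1 dorsally. Twist2, Snai1, Zeb2 and Prrx2 were also higher dorsally on this scale, without overlap. The sum itself was higher ventrally, so a gene at similar levels in both regions comes out dorsal. Relative to the 6 genes left without the collagens, an alternative chosen after seeing the data, Twist1 gave 2.94 to 5.11 per 1000 ventrally and 0.198 to 0.796 dorsally. On that scale Prrx1 gave 7.73 to 16.1 and 6.69 to 11.3, Snai2 5.83 to 10.9 and 11.7 to 21.4, and Zeb1 25.1 to 40.2 and 39.1 to 73.5. Prrx1 and Zeb1 thus overlapped between the regions and Snai2 was still higher dorsally. This smaller sum was also higher ventrally, at 2692 to 3850 against 1234 to 2350 normalized CPM. The dorsal excess of Snai2 is therefore no separate result about that gene. In males Twist1 gave 0.124 to 0.308 per 1000 ventrally and 0.0311 to 0.199 dorsally, which overlapped. Over the epicardial sum, Twist1 gave 4.67 to 8.13 per 1000 in female ventral libraries and 0.495 to 6.79 in female dorsal ones, which overlapped through dorsal library 1.

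**Figure D3:**
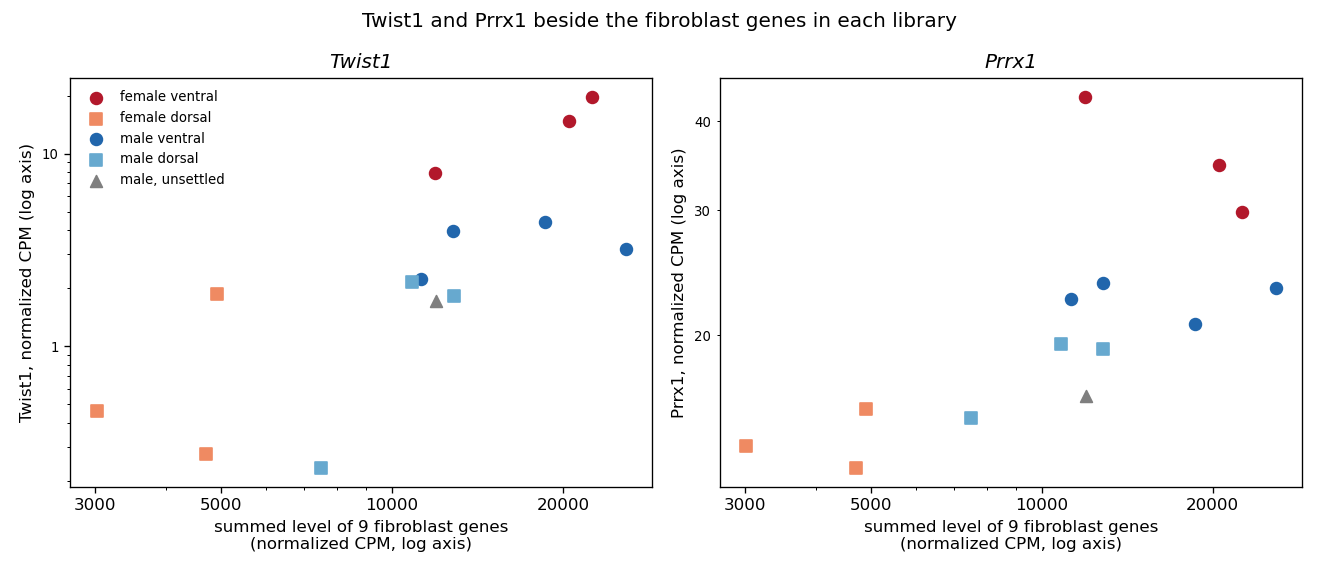
Twist1 (left) and Prrx1 (right) in normalized CPM against the sum of 9 fibroblast genes in the same library, both on log axes; each point is a library. Female dorsal libraries, with sums of 3017 to 4906, lie at the lower left, and female ventral libraries lie above the male ventral ones for both factors at sums of the same range.

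Snail and Zeb proteins can repress epithelial genes. In female hearts 7 of the 12 epithelial genes tested were called ventrally and none dorsally, against 14.5% and 13.3% of all genes, with a median log2 difference of 2.0 against 0.01 for all genes. The largest were Cldn15, a claudin, at 2.54 ± 0.41 (SE), and the keratins Krt18 at 2.54 ± 0.36 and Krt8 at 2.52 ± 0.37, which pair into the filaments of simple epithelia. Krt8 read 52.1 to 104.7 normalized CPM ventrally and 7.09 to 21.5 dorsally. Cdh1, the epithelial cadherin, was at 1.10 ± 0.39 and was not called, nor were Cldn1 at 1.84 ± 0.69, Ocln at 1.13 ± 0.50, Dsp at 0.22 ± 0.13 and Esrp2 at 0.04. In male hearts no epithelial gene was called. Of the 14 tested there, 11 had differences above 0, among them Cdh1 at 1.25, and the median was 0.51. Cldn4 at -0.78, Dsp at -0.49 and Ocln at -0.39 had negative differences. Keratins also mark the mesothelial epicardium, and Krt19 belongs to the epicardial list as well. Of the mesenchymal genes 13 of 18 were called ventrally and none dorsally in female hearts, with a median of 1.54 (8 called without female ventral library 2). The largest were the collagens Col1a2 at 2.79 ± 0.34, Col1a1 at 2.46 ± 0.30 and Col3a1 at 2.35 ± 0.33, and Vim, which encodes vimentin, was at 1.37 ± 0.17. Cdh2 at -0.09 ± 0.14 and Postn at -0.01 ± 0.36 were not called. Of the mesenchymal list, 7 genes are also in the fibroblast list.

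Promoters are shown for the E-box that Snail and Zeb zinc fingers recognise, as 250 bases before the RefSeq start (GRCm38.p6), for 3 genes that hold it and for Twist1, the member with the widest regional difference in female hearts. The letters searched were CACCTG and, for the other strand, CAGGTG, a form of the general E-box CANNTG, and matches are in capitals. Of 27025 genes with a promoter in the table, 19.4% held a match in at least 1 promoter, and of 32851 promoters 17.2% did. Among 10 listed epithelial genes with a promoter 6 held one (Cldn4, Crb3, Krt18, Krt7, Krt8, Ocln), and among 9 mesenchymal genes none did. Cdh1, Krt19, Esrp2 and Grhl2 had no entry, and only 9 of 18 mesenchymal genes had one, with Cdh2, Fn1 and Col1a1 among those missing. Both lists were thus searched only in part. Of the 6 factors with an entry only Snai1 did. A match describes the letters and not a site in use. Snai1 spans chr2:167537945-167538194 on the plus strand, Krt8 chr15:102004343-102004592 on the minus strand, Krt18 chr15:102027966-102028215 on the plus strand and Twist1 chr12:33957421-33957670 on the plus strand. The match begins 126 bases before the start in Snai1, 111 in Krt8 and 214 in Krt18.
Snai1: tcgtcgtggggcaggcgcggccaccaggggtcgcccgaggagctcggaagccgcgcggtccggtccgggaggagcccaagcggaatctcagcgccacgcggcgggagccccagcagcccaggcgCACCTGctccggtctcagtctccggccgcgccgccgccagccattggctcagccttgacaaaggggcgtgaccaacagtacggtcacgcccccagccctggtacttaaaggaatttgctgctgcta
Krt8: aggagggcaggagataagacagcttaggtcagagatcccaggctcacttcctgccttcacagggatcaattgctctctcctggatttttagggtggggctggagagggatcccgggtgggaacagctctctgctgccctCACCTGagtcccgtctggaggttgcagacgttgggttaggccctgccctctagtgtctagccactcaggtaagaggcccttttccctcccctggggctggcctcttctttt
Krt18: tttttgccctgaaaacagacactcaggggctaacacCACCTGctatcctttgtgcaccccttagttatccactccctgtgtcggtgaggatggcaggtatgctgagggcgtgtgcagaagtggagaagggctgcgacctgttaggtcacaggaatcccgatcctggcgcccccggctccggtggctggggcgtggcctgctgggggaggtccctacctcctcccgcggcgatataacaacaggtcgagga
Twist1: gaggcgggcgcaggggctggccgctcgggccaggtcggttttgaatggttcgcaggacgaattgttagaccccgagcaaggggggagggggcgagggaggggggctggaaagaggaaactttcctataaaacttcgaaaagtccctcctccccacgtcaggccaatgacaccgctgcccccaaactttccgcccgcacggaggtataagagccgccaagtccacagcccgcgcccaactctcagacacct

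Partners and inhibitors of bHLH factors come next. Of 12 such genes 1 was called in female hearts, against 27.8% of all genes. This was Tcf15, a bHLH factor also known as paraxis, at -3.19 ± 0.31 (SE) and thus dorsal, from 1.92 to 3.10 normalized CPM ventrally to 21.5 to 44.5 dorsally. The E proteins that Twist pairs with were not called, with Tcf3 at 0.40 ± 0.16, Tcf4 at 0.10 ± 0.16 and Tcf12 at 0.30 ± 0.19, and neither was Tcf21, an epicardial bHLH factor, at 0.58 ± 0.33, nor Id4 at -0.97 ± 0.38. The median of the list was 0.20, and 3 of its genes were called without female dorsal library 1. Among 13 corepressors and turnover factors of Snail and Zeb proteins 3 were called ventrally: the kinase Lats2 at 0.88 ± 0.17, the histone demethylase Kdm1a at 0.86 ± 0.15 and the F-box protein Fbxl14 at 0.72 ± 0.23. The histone deacetylase Hdac2 at -0.83 ± 0.14 and the Zeb corepressor Ctbp1 at -0.79 ± 0.13 were called dorsally, Ctbp2 was at -0.07 ± 0.15, and the median was -0.14. Of 14 other regulators of the transition 5 were called ventrally and none dorsally, led by Klf4 at 1.62 ± 0.20, Wt1 at 1.10 ± 0.21 and Tead1 at 1.04 ± 0.15, with a median of 0.70. In male hearts limma and edgeR called no gene of any of these lists. The replicate block called 1, the mesenchymal gene Tnc (1.50, adjusted p = 0.00597), against 0.509% of all genes. In the main limma fit 7 mesenchymal genes, 1 epithelial gene and 1 other regulator had an unadjusted p under 0.05, as did 2083 of all 14917 genes. The medians in that fit were 0.51 for epithelial and 0.48 for mesenchymal genes against 0.03 for all genes.

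Between the sexes the lists divided differently. Of all 15772 genes 4.4% were called higher in males and 6.54% lower. Of 12 bHLH partners and inhibitors 3 were called higher in males (Tcf21 at 0.88 ± 0.23, Id1 at 0.81 ± 0.19 and Id3 at 0.54 ± 0.15, SE) and 4 lower (Tcf15 at -1.81 ± 0.42, Id4 at -1.65 ± 0.35, Tcf12 at -0.61 ± 0.16 and Tcf3 at -0.60 ± 0.12). The Tcf15 value came mostly from the dorsal side, with means of 2.33 normalized CPM in males against 32.2 in females, and ventrally 1.5 against 2.52. Id proteins bind E proteins and keep them from DNA. Of 13 corepressors and turnover factors 5 were called lower in males and none higher, among them Hdac2 at -1.89 ± 0.23, Ctbp1 at -1.23 ± 0.17 and Ctbp2 at -0.70 ± 0.12. Of 14 epithelial genes 5 were called higher in males and none lower, namely Krt8, Krt7, Cldn3, Krt19 and Krt18, at 1.37 to 1.86. No mesenchymal gene of 18 was called by limma or edgeR, with 2 at an unadjusted p under 0.05, and Vim was at -0.11 ± 0.16, from means of 658 in males against 970.1 normalized CPM in females ventrally and 491.5 against 374.1 dorsally. Leaving out a library gave 0 to 2 such calls (1 without female ventral library 2 or 3 or male ventral library 5, and 2 without male ventral library 4). Of 14 other regulators 2 were called higher in males (Tcf21 and Wt1 at 0.95 ± 0.27) and 2 lower (Yap1 at -0.66 ± 0.13 and Sox4 at -0.35 ± 0.10), and with libraries left out 1 to 4 were called (1 without female ventral library 1, male dorsal library 5 or male dorsal library 6, and 2 without female ventral library 2, female dorsal library 1 or male ventral libraries 6 or 7). The medians of these 5 lists were -0.21, -0.34, 0.56, 0.30 and -0.24 in the order given, against 0.03 for all genes.

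The regional change itself differed between the sexes for 4 genes of these lists, against 2.73% of all genes. Tcf15 was at 2.79 ± 0.47 (SE, limma adjusted p = 0.00406) and Hdac2 at 1.36 ± 0.29 (adjusted p = 0.0203), both as male minus female, and no corepressor was called without female ventral library 1 or 2, female dorsal library 1 or 2 or male dorsal library 4. Vim at -0.95 ± 0.20 (adjusted p = 0.0195) and Col5a1 at -1.49 ± 0.29 (adjusted p = 0.0107) had a smaller ventral excess in males. With the replicate block 5 epithelial, 7 mesenchymal and 2 other regulators were called in place of 0, 2 and 0. The 2.73% of all genes belongs to the main fit and not to the block, so nothing is read from this rise. With a library left out 1 to 5 mesenchymal genes were called, 4 without female ventral library 1, 5 without male ventral library 6, and 1 without female ventral library 2 or 3, female dorsal library 2 or male dorsal library 5.

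**Figure D4:**
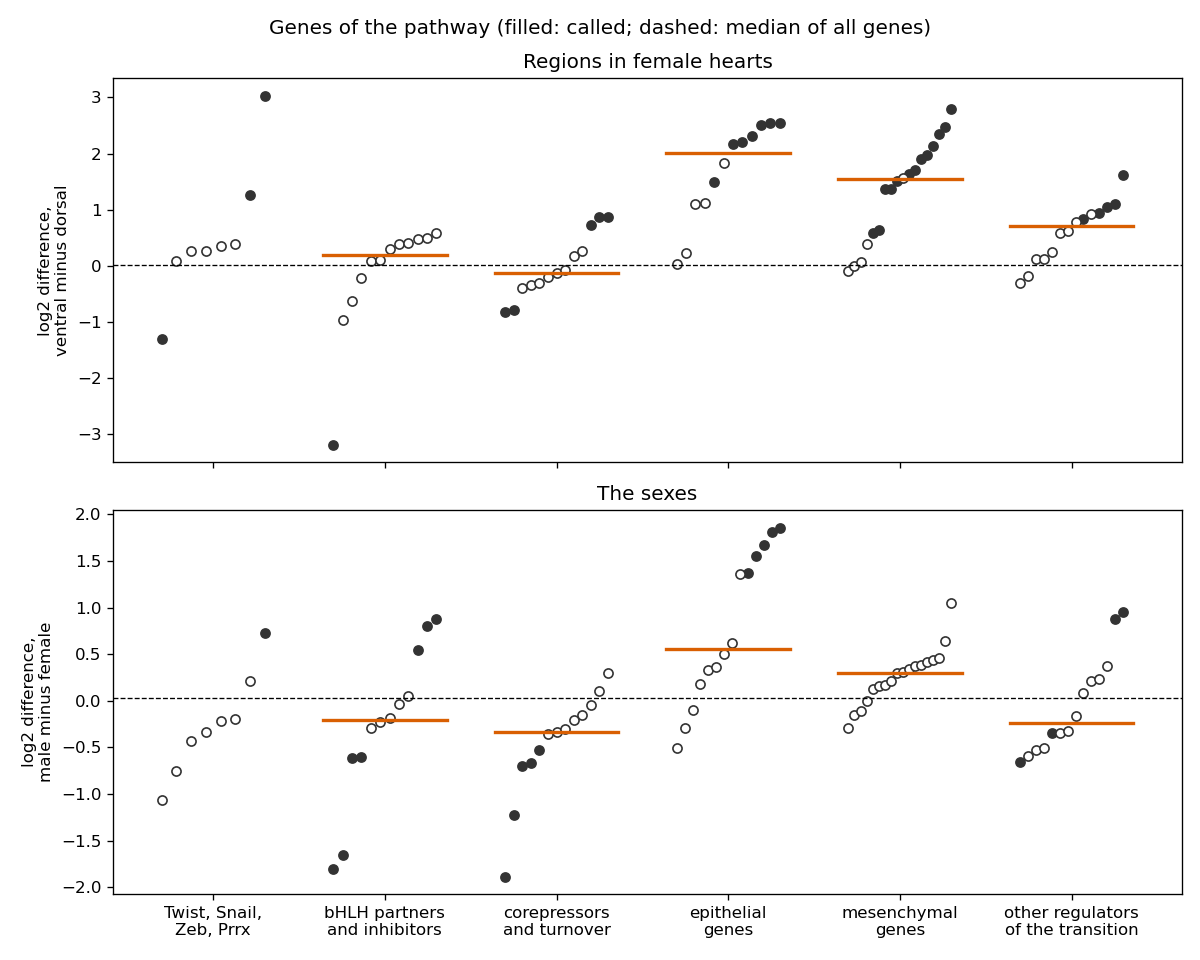
Log2 differences on the log2(value + 1) scale of the factors and of 5 lists of related genes, ventral minus dorsal in female hearts (top) and male minus female (bottom); each point is a gene, filled points were called, orange bars are list medians and the dashed line is the median of all genes. Epithelial genes and, except for Cdh2 and Postn, mesenchymal genes lie above the line in the top panel, with medians of 2.0 and 1.54. Corepressors lie mostly below it in the bottom panel.

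The genes that followed each factor most closely over the 14 libraries, with each sex centred on its mean and among genes with a mean of at least 5, were Ext1 (Pearson r = 0.965) and Sdf2 (0.958) for Twist1 and Ttc3 (0.936) and Hic1 (0.931) for Prrx1. For Prrx2 they were Efhd2 (0.885) and Ppp3cc (0.878), for Snai1 Fchsd2 (0.887) and Marf1 (0.849), for Snai2 Fcho2 (0.835) and Acss1 (0.802), for Zeb1 Slc41a1 (0.915) and Flnc (0.896), for Zeb2 Rab4a (0.929) and Creld2 (0.904), and for Twist2 Gas8 (0.908) and Map2k3 (0.844). These are descriptions over libraries that share regions, so the regional difference itself adds to them. With each of the 4 groups centred on its own mean instead (13 libraries), r fell to 0.408 for Ttc3 and 0.327 for Hic1 with Prrx1. With Prrx2 it fell to 0.664 for Efhd2 and 0.602 for Ppp3cc, whereas it was 0.811 for Ext1 with Twist1 and 0.957 for Creld2 with Zeb2. All these genes were picked for a high r in the same libraries, so a value that stays high is no independent evidence of likeness. Twist1 and Prrx1 had r = 0.878 with the sexes centred, the highest of the 28 pairs of factors, and 0.0886 with the groups centred.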

How the data were processed

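RNA-seq of 14 libraries was analysed (60-base single reads). As the study's methods describe, the authors trimmed reads with Cutadapt, quantified them with RSEM on the GRCm38 transcriptome, normalized with limma and kept expressed genes. The RSEM version is 1.3.1 in the submitters' processing notes, and whether reads were counted by strand is not given in the sources used here. The deposited signal is a normalized CPM, and whole reads were recovered for 100.0% of values (tolerance 0.02 reads, offset 0.5), so depth is known: 3 reads is the floor, and floors cover counting error only. Positions and lengths came from GENCODE M21 (99.9% of identifiers found), promoters from RefSeq.

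Regions were compared within each sex and the sexes with region as a covariate by limma 3.58.1 in R 4.3.3 (eBayes with trend) on log2(value + 1), over genes that reached 1 in 3 or more of the libraries fitted. Adjustment over all genes followed Benjamini and Hochberg, with calls under 0.05. How far the regional change differed between the sexes was fitted over 13 libraries in 4 groups. The methods state that samples came from 3 or more litters but no label ties a library to a litter, so p-values measure the spread between libraries. The main fits took ventral and dorsal libraries of one number as independent. If a number marks one set of hearts, p-values between the sexes do not measure the spread between pools. The fits were tested on simulated data. All 8 factors are named with every value, from the lists those called between the female regions with the largest changes (up to 3 each way) and the genes that define a list, and for each factor the 2 most similar genes. Genes of the lists named beyond these, for the sexes or as not called between the regions (such as Id4, Cldn1 and Postn), were chosen after their values were seen. The members and lists were chosen with earlier results of these data known. Alternatives were a pseudocount of 0.1, no filter or a mean of at least 10, median of ratios, quantile normalization, no trend, edgeR 4.0.16 on the recovered reads, removal of the GC and length trend (splines with 5 degrees of freedom), each library left out, the replicate number as a block or averaged, and the unsettled library taken as dorsal or ventral. Deviations of same-numbered ventral and dorsal libraries from the means of their groups were positively correlated (r = 0.187, 0.169 and 0.27 in females, 0.427, 0.175 and 0.351 in males, over 15772 genes). The numbers were taken as pairs in the block, although no label says what a number marks. No r was computed for libraries of different numbers, so these values alone do not show that a number marks a pair.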

Additional observations from a re-analysis of the deposited data

Results flagged for a closer look

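In the 4 male ventral libraries 3 factors had a library far from the others by Dixon's criterion, which chance meets in about 1 in 20 groups. Snai2 stood at 44.7 normalized CPM in library 5, against 27.7 to 30.5 in the other 3. Zeb2 stood at 52.0 in the same library, against 33.2 to 35.0. Prrx2 stood at 1.94 in library 7 (45 reads), against 0.299 to 0.537 in the other 3.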

How the results depend on the processing

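For the 31 member differences, 578 of 618 recomputed values kept their direction and side of the threshold, 11 fell short of it, 11 passed it and 18 changed sign, all among differences that were not called. Of the female regional calls 3 became 1 with a mean of at least 10, a filter that Twist1 and Prrx2 do not pass, and 2 to 3 with a library left out. Zeb1 was called as well with quantile normalization (0.46, adjusted p = 0.0468). Member calls between the sexes were 1, and became 2 with quantile normalization or with the unsettled library taken as dorsal or as ventral, 0 with the GC and length trend removed, and 0 to 2 with a library left out (0 without female ventral 2 or 3, female dorsal 2, male ventral 6 or male dorsal 5, and 2 without female ventral 1). Calls of a regional change that differs between the sexes were 0, and became 1 with a mean of at least 10 (Prrx1), 1 with the unsettled library taken as dorsal (Prrx2) or ventral (Prrx1), and 0 to 1 with a library left out (Twist1 without male dorsal 4). No setting called a member between the male regions. The causes were not tested.

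Sign changes concerned differences near 0. Snai2 between the male regions was -0.011 with the unsettled library as dorsal and -0.21 to 0.23 with a library left out, between the female regions -0.043 to 0.25, and Zeb2 between the male regions -0.11 to 0.14. Prrx1 between the sexes was 0.0084 with the GC and length trend removed. The sex difference of the regional change of Snai2 was 0.00738 with the median of ratios, 0.019 with the unsettled library as ventral and -0.29 to 0.15 with a library left out. With the replicate block, which pairs libraries of one number, it was 0.043, and the block gave 3 member calls in females and 0 in males and changed no other member call. Scarce genes limit the depth: Prrx2 had 0 to 119 reads and Twist1 3 to 335, and the added 1 compresses their differences.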

Other observations

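The male library of unsettled region, number 7, has labels that disagree on its side of the heart. It read 1.72 normalized CPM for Twist1, 2.92 for Twist2, 15.7 for Snai1, 37.4 for Snai2, 85.6 for Zeb1, 39.6 for Zeb2, 16.4 for Prrx1 and 0.251 for Prrx2 (6 reads). Its 10 epicardial genes summed to 2846 and its 9 fibroblast genes to 11950.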
